A study of Homo sapiens with 9 samples.

Results

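The genes described here are the 36 aminoacyl-tRNA synthetase genes of a fixed list, 20 for enzymes of the cytosol and 16 for enzymes of the mitochondria, taken by symbol from the 58233 genes counted in the series. They were followed in UPCI-SCC-040, an oral squamous carcinoma line from the tongue, in 9 RNA-seq libraries of total RNA. In 3 libraries the cells had received 5 ng/ml transforming growth factor beta 1 (TGF-β1) for 48 h, in 3 they had received that dose for 72 h, and 3 were untreated controls. Replicates 1, 2 and 3 of each group came from passages 12, 13 and 8 of the line, and values by library are given in that order. TGF-β1 was given in medium free of serum and antibiotics, whereas the growth medium held both. Controls are labelled 0 h, with no statement that they were kept without serum, so the effects of the cytokine, of serum withdrawal and of time in culture cannot be told apart in either comparison with control. It is a single tumour line, and apart from the passage no label says that replicates were grown separately, so the p-values reflect only how much these samples varied. By its title, the series looks for prognostic factors among genes that change as this cancer progresses.

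Aminoacyl-tRNA synthetases join each amino acid to its transfer RNA (tRNA) and so supply the substrates of protein synthesis. The cytosol and the mitochondria use separate sets, named here without and with the suffix 2, except that GARS and KARS each give rise to enzymes of both compartments. Mitochondria lack a glutamine enzyme of their own, and EARS2 loads glutamate on the glutamine tRNA, where an amidotransferase then converts it. Many cytosolic synthetase genes are induced through the transcription factor ATF4 when amino acids run short or proteins misfold, and WARS is also known as a gene induced by interferon gamma.

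Library totals ran from 12544690 to 20438727 counts, and the 36 genes took 0.377% to 0.737% of them. All 36 had enough counts to be tested, as had 15440 genes in all, and the fewest counts of any of them in a library were 26. The marker genes of squamous epithelium summed to 9220 to 22821 CPM (counts relative to the TMM-scaled library size) in every library, whereas those of fibroblasts, immune cells and endothelium summed to at most 0.408, 0.287 and 2.66 CPM. The 72 h library of replicate 3 stood apart, with 1.54% of its counts on the nuclear RNA MALAT1, against 0.247% to 0.507% in the other 8. Being bulk RNA, the counts do not tell fewer cells with a transcript from less of it per cell.

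The cytosolic enzymes had the more abundant transcripts. In controls, on the scale of CPM per kilobase of exon, the highest levels were those of TARS at 103 ± 8.04, KARS at 92.6 ± 3.39 and IARS at 89.1 ± 8.24 (SD, n = 3), which load threonine, lysine and isoleucine. The highest mitochondrial transcript, IARS2, came 8th of the 36 at 42.6 ± 1.38, and the lowest of all was SARS2 at 1.57 ± 0.305. The lowest cytosolic transcript, CARS, came 26th at 7.73 ± 0.888. Summed over the 16 mitochondrial genes, the level per kilobase was 146 ± 4.72 at 48 h, 142 ± 3.47 at 72 h and 163 ± 5.55 in controls (SD, n = 3 each), and both treated groups lay below all controls. The sum over the 20 cytosolic genes was 974, 779.5 and 638 at 48 h, 805, 1310.3 and 659.7 at 72 h, and 838, 929 and 836 in controls. Those treated libraries spread to both sides of the controls, so the ratio of the cytosolic to the mitochondrial sum was 6.81, 5.43 and 4.21 at 48 h, 5.62, 9.02 and 4.76 at 72 h, and 5.302, 5.502 and 5.19 in controls.

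After 48 h of TGF-β1, of the 20 cytosolic genes WARS was higher than in controls and KARS, VARS, FARSA and FARSB were lower, while of the 16 mitochondrial genes AARS2, CARS2, EARS2, MARS2, SARS2 and WARS2 were lower and 0 were higher. That is 11 of 36 with an adjusted p under 0.05. Every adjusted p given here for a gene comes from quasi-likelihood F tests in edgeR, Benjamini-Hochberg adjusted over all genes tested. Of all genes tested, 31.0% passed, 14.9% higher and 16.0% lower, so the total for the 36 was near the background. The lower calls were 4 of the 20 cytosolic and 6 of the 16 mitochondrial genes. The median log2 fold change was -0.17 over the cytosolic and -0.40 over the mitochondrial genes, beside -0.0019 over all genes. Libraries of treated and control cells did not overlap in 1 cytosolic gene above and 8 below the controls, and in 11 mitochondrial genes below them, where all 3 libraries lay above in 25.6% and below in 28.1% of all genes.

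After 72 h, WARS and AARS were higher and KARS, VARS, FARSB and DARS were lower among the cytosolic genes, and CARS2, EARS2, MARS2, NARS2, SARS2 and WARS2 were lower among the mitochondrial ones, of which 0 were higher. Of all genes, 39.8% passed, 20.4% higher and 19.4% lower, against 12 of the 36. The median log2 fold change was -0.0078 over the cytosolic and -0.20 over the mitochondrial genes, beside 0.033 over all genes. The cytosolic median changed sign with the scaling, at 0.039 with upper-quartile factors. Treated libraries lay wholly above the controls in 2 cytosolic and 2 mitochondrial genes, and wholly below in 6 and 8, where the shares of all genes were 27.3% and 27.7%. The comparisons at 48 h and 72 h share their controls, so agreement between them is not separate evidence.

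**Figure D1:**
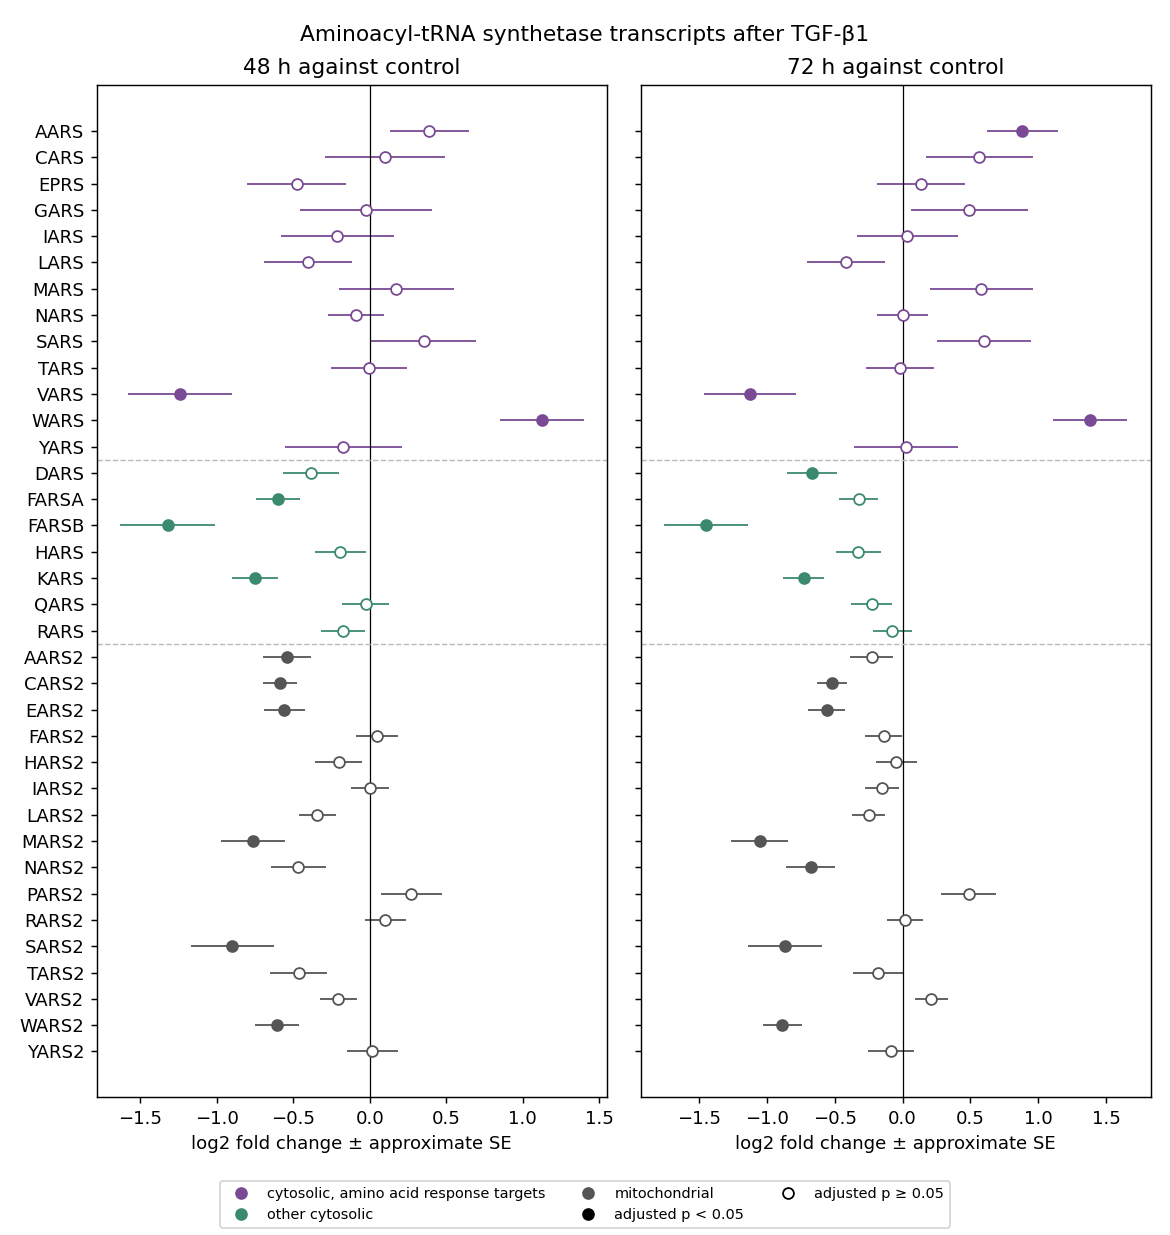
Log2 fold change of each of the 36 synthetase genes at 48 h (left) and 72 h (right) against control, with approximate standard errors (3 libraries a group). Filled points passed an adjusted p of 0.05, and colours mark the cytosolic genes known as targets of the amino acid response, the other cytosolic genes and the mitochondrial genes. WARS lies farthest to the right at both times, and every filled mitochondrial point lies left of 0.

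Among the mitochondrial enzymes, WARS2 (chromosome 1, 119031216 to 119140671, minus strand, GRCh38, as for all loci here) had the smallest adjusted p at 72 h. WARS2, which loads tryptophan, had 16.01, 16.5 and 13.6 CPM at 48 h, 13.8, 12.4 and 11.9 CPM at 72 h and 24.2, 25.2 and 20.9 CPM in controls. The 6 treated libraries all lay below the 3 controls, with log2 fold changes of -0.61 ± 0.14 (adjusted p = 0.0117) at 48 h and -0.89 ± 0.14 (adjusted p = 0.00167) at 72 h. CARS2, the cysteine enzyme (chromosome 13, 110641412 to 110713603, minus strand), had 44.6, 46.3 and 39.9 CPM at 48 h, 47.1, 41.8 and 48.1 CPM at 72 h and 63.5, 63.1 and 69.9 CPM in controls. Again no treated library reached the controls, and the log2 fold changes were -0.59 ± 0.11 (adjusted p = 0.00514) at 48 h and -0.52 ± 0.11 (adjusted p = 0.00613) at 72 h. EARS2, the glutamate enzyme that also serves the glutamine tRNA (chromosome 16, 23522014 to 23557731, minus strand), had 26.6, 23.8 and 24.9 CPM at 48 h, 25.1, 24.6 and 25.6 CPM at 72 h and 32.6, 43.3 and 34.97 CPM in controls. The treated values kept within a narrow band under the lowest control, with -0.56 ± 0.13 (adjusted p = 0.0127) at 48 h and -0.56 ± 0.13 (adjusted p = 0.00912) at 72 h.

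MARS2, a methionine enzyme encoded in a single exon (chromosome 2, 197705369 to 197708387, plus strand), had 11.8, 11.8 and 6.85 CPM at 48 h, 9.13, 8.03 and 7.79 CPM at 72 h and 17.4, 17.7 and 16.8 CPM in controls. Its 72 h libraries were close together, whereas the 48 h library of replicate 3 was lower than its companions, and the log2 fold changes were -0.76 ± 0.21 (adjusted p = 0.0211) at 48 h and -1.05 ± 0.21 (adjusted p = 0.00419) at 72 h. SARS2, the serine enzyme (chromosome 19, 38915266 to 38930896, minus strand), had the lowest values of the family, 2.39, 3.61 and 2.12 CPM at 48 h, 3.16, 2.34 and 2.84 CPM at 72 h and 6.21, 4.56 and 4.44 CPM in controls. All treated libraries lay below all controls, with -0.899 ± 0.27 (adjusted p = 0.0317) at 48 h and -0.87 ± 0.27 (adjusted p = 0.02901) at 72 h. Exons of other genes, on either strand, overlap 57% of the exon bases of SARS2, so part of its counts may be shared or lost, and the call at 48 h did not survive omission of any 1 control or of 48 h replicate 1 or 3 (adjusted p up to 0.122).

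AARS2, the alanine enzyme (chromosome 6, 44299654 to 44313326, minus strand), had 22.6, 34.2 and 24.7 CPM at 48 h, 35.2, 33.6 and 32.4 CPM at 72 h and 37.9, 40.97 and 39.7 CPM in controls. The treated libraries lay below the controls at both times, and the log2 fold changes were -0.54 ± 0.16 (adjusted p = 0.0269) at 48 h and -0.23 ± 0.16 (adjusted p = 0.265) at 72 h. NARS2, the asparagine enzyme (chromosome 11, 78435961 to 78574874, minus strand), had 13.3, 11.4 and 14.2 CPM at 48 h, 12.96, 9.34 and 11.2 CPM at 72 h and 18.99, 19.7 and 14.98 CPM in controls, with -0.47 ± 0.18 (adjusted p = 0.0711) at 48 h and -0.68 ± 0.18 (adjusted p = 0.0141) at 72 h. The libraries of both times stayed below the lowest control and overlapped each other. Of the mitochondrial calls, CARS2 at both times and EARS2, MARS2 and WARS2 at 72 h held when any 1 library was left out. Without every library of replicate 1, 0 of the 16 mitochondrial genes passed as lower at 48 h, and without those of replicate 2, 1 did. At 72 h the lowest such count with 1 replicate number left out was 1. At 48 h, EARS2 and WARS2 were lost without control 2 (adjusted p = 0.0576 and 0.0542), MARS2 without any 1 control (up to 0.0683) and AARS2 without any 1 control or 48 h replicate 1 or 3 (up to 0.0992). At 72 h, SARS2 was lost without control 1 or 2 or 72 h replicate 2 (up to 0.116), and NARS2 without control 1 or 2 (up to 0.05904). The count of mitochondrial genes called lower at 48 h was 1 without control 2, which is itself part of that comparison. Without 72 h replicate 3, the library that stood apart, it was 8. That library is not in the comparison but shares the fit of all 9 libraries, with 1 estimate of the spread. The cause of either shift was not tested.

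**Figure D2:**
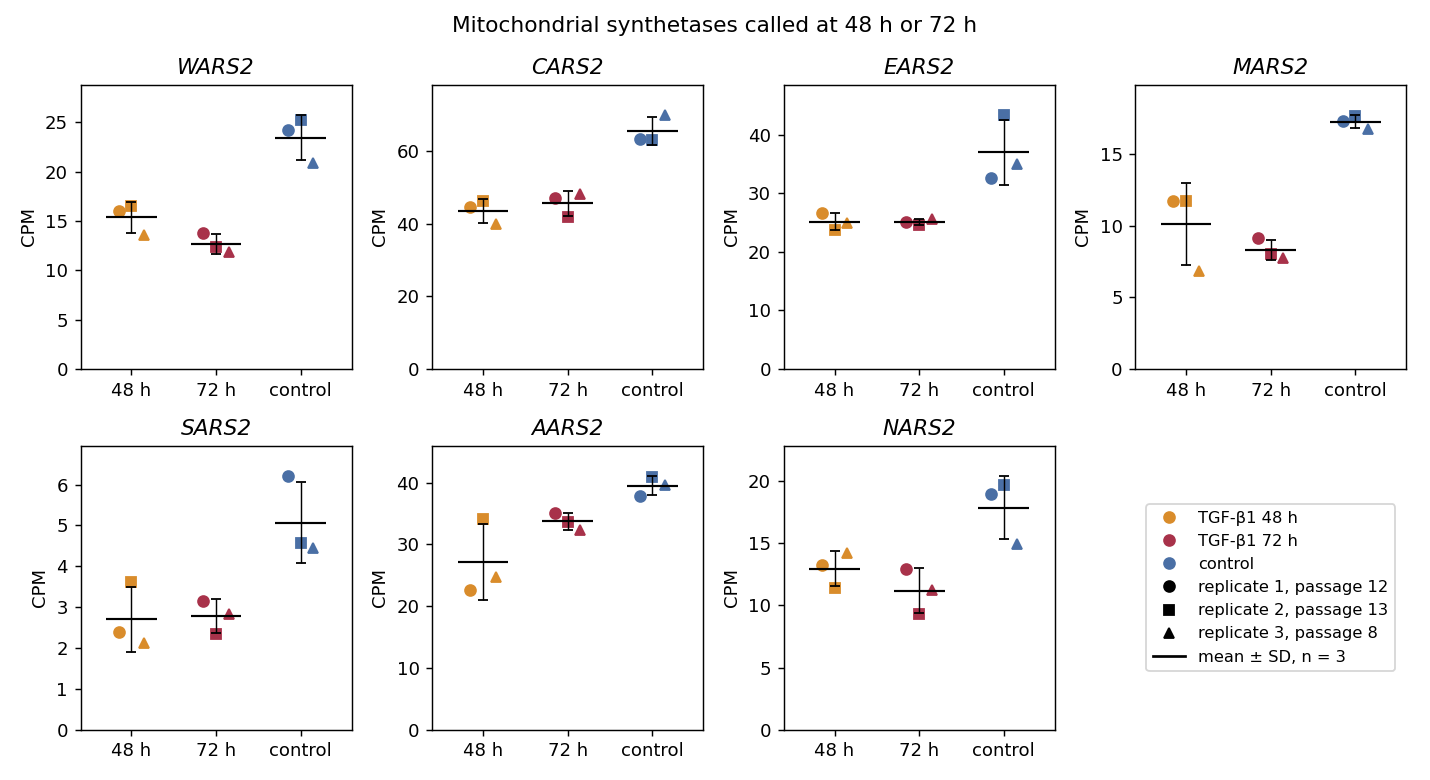
CPM in every library for the 7 mitochondrial synthetase genes called at 48 h or 72 h, by group (48 h, 72 h, control), with marker shapes for the replicates and bars for mean ± SD (n = 3). In each of the 7 genes all treated points lie below the lowest control.

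The other mitochondrial genes did not pass at either time, with log2 fold changes from -0.46 (TARS2, threonine) to 0.27 (PARS2, proline) at 48 h and from -0.25 (LARS2, leucine) to 0.49 (PARS2) at 72 h. IARS2, the isoleucine enzyme and the most abundant of the set, had 168, 165 and 200.4 CPM at 48 h, 150.1, 177 and 152 CPM at 72 h and 171, 181 and 181 CPM in controls. Its groups overlapped, with 0.0020 ± 0.13 (adjusted p = 0.992) at 48 h and -0.15 ± 0.13 (adjusted p = 0.354) at 72 h. PARS2 had 11.8, 10.2 and 8.97 CPM at 48 h, 9.75, 11.6 and 14.6 CPM at 72 h and 7.29, 9.18 and 9.17 CPM in controls, all 72 h libraries above the controls, with 0.27 ± 0.201 (adjusted p = 0.328) at 48 h and 0.49 ± 0.20 (adjusted p = 0.0779) at 72 h. Leaving out 72 h replicate 1 gave PARS2 an adjusted p of 0.0423 at 72 h, and in that fit it was the sole mitochondrial gene called higher.

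Of the cytosolic genes, 5 fell at 48 h or 72 h. KARS (chromosome 16, 75627474 to 75648643, minus strand), which loads lysine and belongs to the multi-tRNA synthetase complex, had 222, 234 and 214 CPM at 48 h, 237, 264 and 181 CPM at 72 h and 375, 391 and 363 CPM in controls. All treated libraries lay far below the lowest control, with log2 fold changes of -0.75 ± 0.15 (adjusted p = 0.00606) at 48 h and -0.73 ± 0.15 (adjusted p = 0.00508) at 72 h. FARSA and FARSB encode the alpha and beta subunits of the phenylalanine enzyme, which is active as a tetramer holding both. FARSB (chromosome 2, 222570536 to 222656337, minus strand) had 32.8, 43.3 and 29.1 CPM at 48 h, 42.4, 37.9 and 16.2 CPM at 72 h and 90.5, 89.5 and 83.1 CPM in controls. The treated libraries were far below the controls, the lowest being 72 h replicate 3, and the log2 fold changes were -1.32 ± 0.31 (adjusted p = 0.0129) at 48 h and -1.45 ± 0.31 (adjusted p = 0.006599) at 72 h. FARSA (chromosome 19, 12922479 to 12934037, minus strand) had 65.7, 72.1 and 53.4 CPM at 48 h, 81.1, 84.3 and 66.9 CPM at 72 h and 94.2, 105 and 91.3 CPM in controls. The treated libraries lay below the controls by a smaller margin, with -0.603 ± 0.14 (adjusted p = 0.0124) at 48 h and -0.32 ± 0.14 (adjusted p = 0.09802) at 72 h, and with replicate number as a block FARSA also passed at 72 h (adjusted p = 0.04799).

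VARS, the valine enzyme, which binds elongation factor 1 (chromosome 6, 31777518 to 31795953, minus strand), had 58.05, 86.6 and 43.4 CPM at 48 h, 85.8, 81.4 and 37.01 CPM at 72 h and 131, 172 and 142 CPM in controls. No treated library came near the lowest control, with replicate 3 lowest at each time, and the log2 fold changes were -1.24 ± 0.34 (adjusted p = 0.0236) at 48 h and -1.12 ± 0.34 (adjusted p = 0.0272) at 72 h. DARS, the aspartate enzyme of the complex (chromosome 2, 135906677 to 135986100, minus strand), had 108, 109 and 108 CPM at 48 h, 83.4, 117 and 67.7 CPM at 72 h and 139, 158 and 129 CPM in controls. The 48 h libraries were almost equal and the 72 h libraries spread widely, all below the controls, with -0.39 ± 0.18 (adjusted p = 0.136) at 48 h and -0.66 ± 0.18 (adjusted p = 0.0176) at 72 h. KARS held its call in 9 of 9 omissions of 1 library at both times, and FARSB at 72 h. Without every library of replicate 1, or of replicate 2, 0 of the 20 cytosolic genes passed as lower at 48 h. At 72 h the lowest such count with 1 replicate number left out was 1. At 48 h, FARSB was lost without 48 h replicate 1 (adjusted p = 0.0531), FARSA without control 2 (0.0554) and VARS without control 2 or 3 or 48 h replicate 1 or 3 (up to 0.0817). At 72 h, VARS was lost without any 1 control (up to 0.0868) and DARS without control 2 or 72 h replicate 1 (up to 0.0705).

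**Figure D3:**
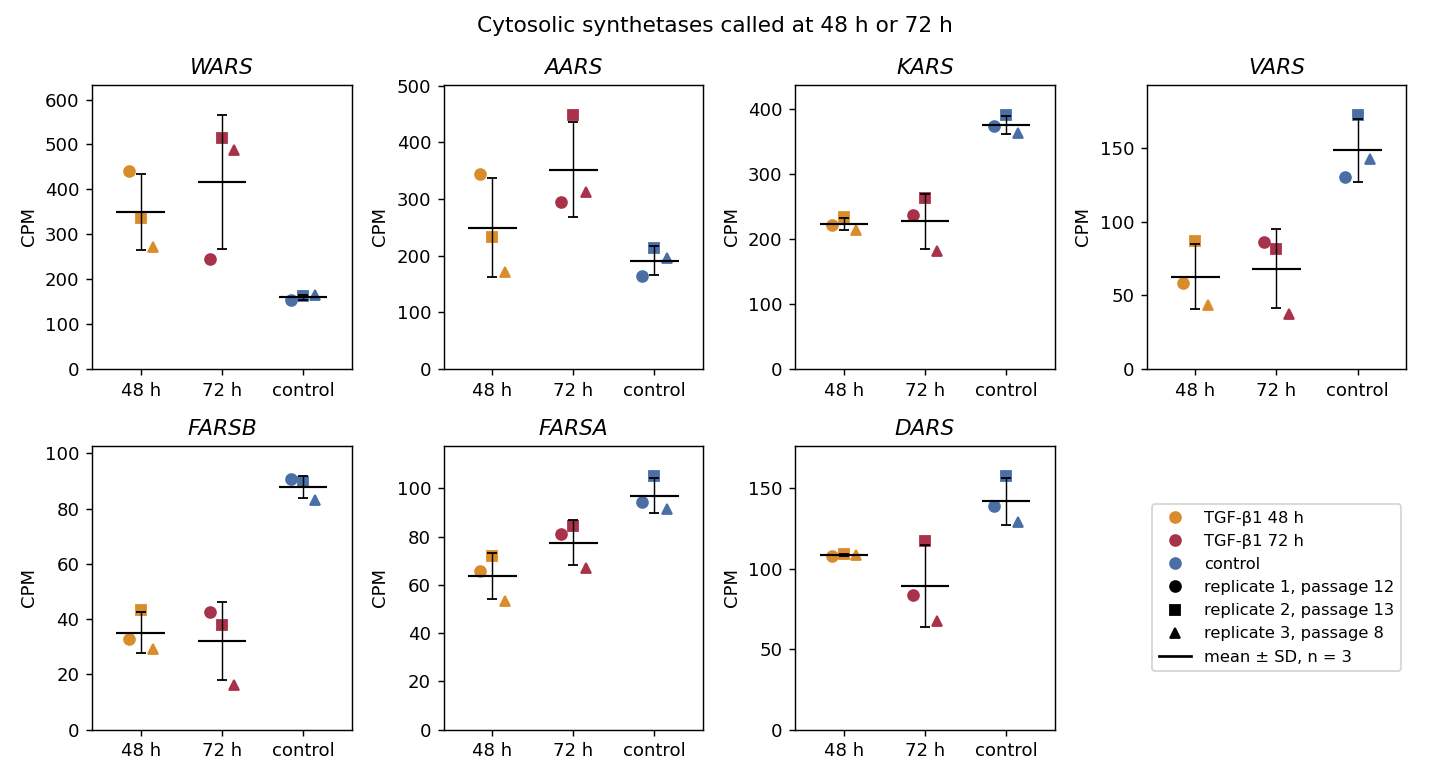
CPM in every library for the 7 cytosolic synthetase genes called at 48 h or 72 h, by group (48 h, 72 h, control), with marker shapes for the replicates and bars for mean ± SD (n = 3). WARS points lie above all controls at both times, and KARS, VARS, FARSB, FARSA and DARS points lie below them.

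WARS, the tryptophan enzyme of the cytosol, was the one member that rose at 48 h and had the largest rise at 72 h. WARS (chromosome 14, 100333788 to 100376805, minus strand) had 440.2, 335 and 272 CPM at 48 h, 246, 515 and 488 CPM at 72 h and 154, 161 and 165 CPM in controls. The controls were close together, whereas 48 h replicate 1 and 72 h replicates 2 and 3 were highest and 72 h replicate 1 was the lowest treated library. The fold was 2.18 at 48 h and 2.603 at 72 h, with log2 fold changes of 1.13 ± 0.27 (adjusted p = 0.0136) at 48 h and 1.38 ± 0.27 (adjusted p = 0.00428) at 72 h. Its call at 48 h was lost without control 1, control 2 or 48 h replicate 1 (adjusted p up to 0.0560), and the call at 72 h held in 9 of 9 omissions of 1 library. With 1 replicate number left out, the lowest count of cytosolic genes called higher was 0 at 48 h and 0 at 72 h. WARS was therefore not called in every such fit. Exons of other genes overlap 10.6% of its exon bases.

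RefSeq places 2 start sites in WARS (GRCh38.p14, table of promoters from 250 bases before to 50 after a start). The stretch before the downstream one is shown because it holds motifs of the interferon pathway, in capitals: first TTCNNNGAA, the gamma interferon activated sequence, and then, on the opposite strand, the interferon-stimulated response element, searched as TTTC, 2 bases of any kind and TTTC again.
WARS promoter, chr14:100375348-100375497, minus strand: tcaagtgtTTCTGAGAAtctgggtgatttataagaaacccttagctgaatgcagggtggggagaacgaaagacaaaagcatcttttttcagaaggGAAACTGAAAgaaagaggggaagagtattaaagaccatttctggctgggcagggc
These matches begin 142 and 55 bases before that start. Both strands were searched. Of the 30 synthetase genes with a window in the table, the response element was in WARS and EARS2 and TTCNNNGAA in CARS, TARS, WARS, PARS2 and WARS2, against 4.38% and 9.38% of all 27305 genes with one. WARS alone of the 30 had both, which was seen after the search, and a match of letters is not evidence that a factor binds.

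The interferon genes set beside WARS and given here were 7, of which 2 rose at 48 h and 3 at 72 h, and 0 fell, where 14.9% and 20.4% of all genes were called higher. With replicate number as a block 4 rose at 48 h and 3 at 72 h, DESeq2 called 4 at each time, and without 1 library 0 to 4 and 2 to 5 rose. MX1 and OAS1, antiviral genes, had log2 fold changes of 4.58 and 4.55 at 48 h (adjusted p = 0.0155 and 0.0116) and of 5.06 and 5.08 at 72 h (0.00842 and 0.00601). The treated libraries differed widely, MX1 having 733, 106 and 1177 CPM at 48 h and 484, 252 and 2073 CPM at 72 h. Its controls had 41.9, 15.7 and 26.8 CPM. ISG15, a ubiquitin-like protein, passed at 72 h (2.202 ± 0.62 (adjusted p = 0.0222)), and its log2 fold change at 48 h was 1.46 ± 0.602 (adjusted p = 0.0987). GBP1, a GTPase that interferon gamma induces, had 28.8, 8.64 and 58.7 CPM at 48 h, 13.5, 6.44 and 78.3 CPM at 72 h and 5.85, 4.403 and 6.02 CPM in controls, all treated libraries above the controls, with 2.56 ± 0.99 (adjusted p = 0.0809) at 48 h and 2.59 ± 0.99 (adjusted p = 0.0664) at 72 h. IRF1 went the other way, with -0.81 ± 0.58 at both times (adjusted p = 0.319 and 0.292). IFIT1 and GBP2 did not pass at either time. In replicate 2 IFIT1 had 123 CPM at 48 h and 166 CPM at 72 h, under its control of 169 CPM. GBP2 had 0.449, 0.245 and 2.04 CPM at 48 h, 0.620, 0.342 and 16.6 CPM at 72 h and 0.603, 0.483 and 0.502 CPM in controls. The call of MX1 at 48 h was lost without control 2 or 3 and that of OAS1 without control 2, so that none of the 7 passed at 48 h without control 2, and ISG15 at 72 h was lost without control 1 or 2. WARS and GBP1 did not peak in the same library, since WARS was highest in 72 h replicate 2 and GBP1 in 72 h replicate 3. By Pearson's r of log2 CPM over the 9 libraries, which share their groups and passages, the transcripts most like WARS were RASGEF1A (0.99), SPPL3 (0.98), HIF1AN (0.97), PHYKPL (0.97) and PCSK1N (0.97). They were picked as the highest r among the 15440 genes tested, so the values are a description, and a link to WARS was not tested.

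AARS, the alanine enzyme (chromosome 16, 70252295 to 70289543, minus strand), was the other cytosolic gene that rose at 72 h. It had 344, 233 and 171 CPM at 48 h, 295, 448 and 313 CPM at 72 h and 163, 214 and 195 CPM in controls. All 72 h libraries lay above all controls, while at 48 h replicate 1 was high and replicate 3 was among the controls, with 0.39 ± 0.26 (adjusted p = 0.277) at 48 h and 0.88 ± 0.26 (adjusted p = 0.0226) at 72 h. The 72 h call was lost without control 1, control 3 or 72 h replicate 2 (adjusted p up to 0.0874).

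AARS belongs to 13 cytosolic genes known as targets of the amino acid response, with CARS, EPRS, GARS, IARS, LARS, MARS, NARS, SARS, TARS, VARS, WARS and YARS. Of these 13, 1 rose and 1 fell at 48 h and 2 rose and 1 fell at 72 h, shares no larger than those of all genes (14.9% higher and 16.0% lower at 48 h, 20.4% and 19.4% at 72 h). Without 1 library 0 to 1 rose and 0 to 1 fell at 48 h, and 1 to 3 rose and 0 to 2 fell at 72 h. The median log2 fold changes were -0.024 and 0.14. The median at 48 h was 0.032 with upper-quartile factors. The treated libraries of 1 group differed widely in these genes. The median SD of log2 CPM was 0.48 at 48 h and 0.71 at 72 h, against 0.13 in controls. For the other 7 cytosolic genes it was 0.13, 0.31 and 0.073, for the mitochondrial genes 0.15, 0.16 and 0.11, and for all genes 0.22, 0.27 and 0.14, in the same order.

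The same libraries were high in most of these genes. GARS, the glycine enzyme, had 389.9, 258 and 194 CPM at 48 h, 307, 704 and 195 CPM at 72 h and 269, 298 and 289.8 CPM in controls. MARS, the methionine enzyme, had 357, 215 and 165 CPM at 48 h, 278, 510.3 and 189 CPM at 72 h and 197, 250.1 and 206 CPM in controls, and exons of other genes overlap 13.3% of its exon bases, among them those of DDIT3 on the opposite strand. SARS, the serine enzyme, had 421, 307 and 216 CPM at 48 h, 317, 585 and 219.8 CPM at 72 h and 239, 258 and 242 CPM in controls. In each of the 3 genes 72 h replicate 2 was highest and 48 h replicate 1 next, while the libraries of replicate 3 were below the controls. None of the 3 passed at either time, and SARS at 72 h had 0.603 ± 0.35 (adjusted p = 0.190) with all libraries and an adjusted p of 0.0445 without 72 h replicate 3. With no filter on low counts SARS also passed at 72 h (log2 fold change 0.63, adjusted p = 0.0324).

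IARS, the isoleucine enzyme, had 761, 550.4 and 396 CPM at 48 h, 547, 1103 and 377 CPM at 72 h and 653, 723 and 601 CPM in controls. TARS, the threonine enzyme, had 762, 523 and 475 CPM at 48 h, 561, 776 and 408 CPM at 72 h and 557, 641 and 567 CPM in controls. EPRS, which carries the glutamate and proline activities in 1 chain, had 191, 176 and 135 CPM at 48 h, 193, 415 and 162 CPM at 72 h and 218, 268 and 214 CPM in controls. All 3 were again highest in 72 h replicate 2, with adjusted p of 0.947, 0.963 and 0.759 at 72 h. CARS, YARS, NARS and LARS, for cysteine, tyrosine, asparagine and leucine, had log2 fold changes of 0.10, -0.17, -0.090 and -0.401 at 48 h and 0.57, 0.027, 0.0011 and -0.42 at 72 h, none past the threshold. Without 72 h replicate 2, LARS passed as lower at 72 h (log2 fold change -0.87, adjusted p = 0.0108), and the cytosolic count of higher calls at 72 h was 1 in place of 2.

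Counted over the 13 genes, 72 h replicate 2 was the highest of all 9 libraries in 12 (92.3%), the exception being VARS. This held in 1 of the other 7 cytosolic genes and in 11.1% of all genes tested. Among the 6 treated libraries 72 h replicate 2 was highest, with 48 h replicate 1 next, in 10 of 13 (76.9%). That order was seen in 0 of the other 7 cytosolic genes and in 2.41% of all genes. Both libraries of replicate 3 were the lowest of the treated in 9 of 13 (69.2%) and in 3 of the other 7 (42.9%), against 13.0% of all genes. Highest among the treated was 72 h replicate 2 in 4 of the other 7 cytosolic genes (57.1%) and 2 of 16 mitochondrial genes, against 16.6% of all genes. High values in that library were thus not confined to the 13 genes. Against the control of the same passage, the median log2 difference of the 13 genes was 0.51, -0.29 and -0.43 at 48 h and 0.14, 0.63 and -0.41 at 72 h for replicates 1, 2 and 3. That of the mitochondrial genes was -0.30, -0.28 and -0.29 at 48 h and -0.19, -0.36 and -0.27 at 72 h. These libraries were singled out after their values were seen, so the counts describe them and were not tested.

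**Figure D4:**
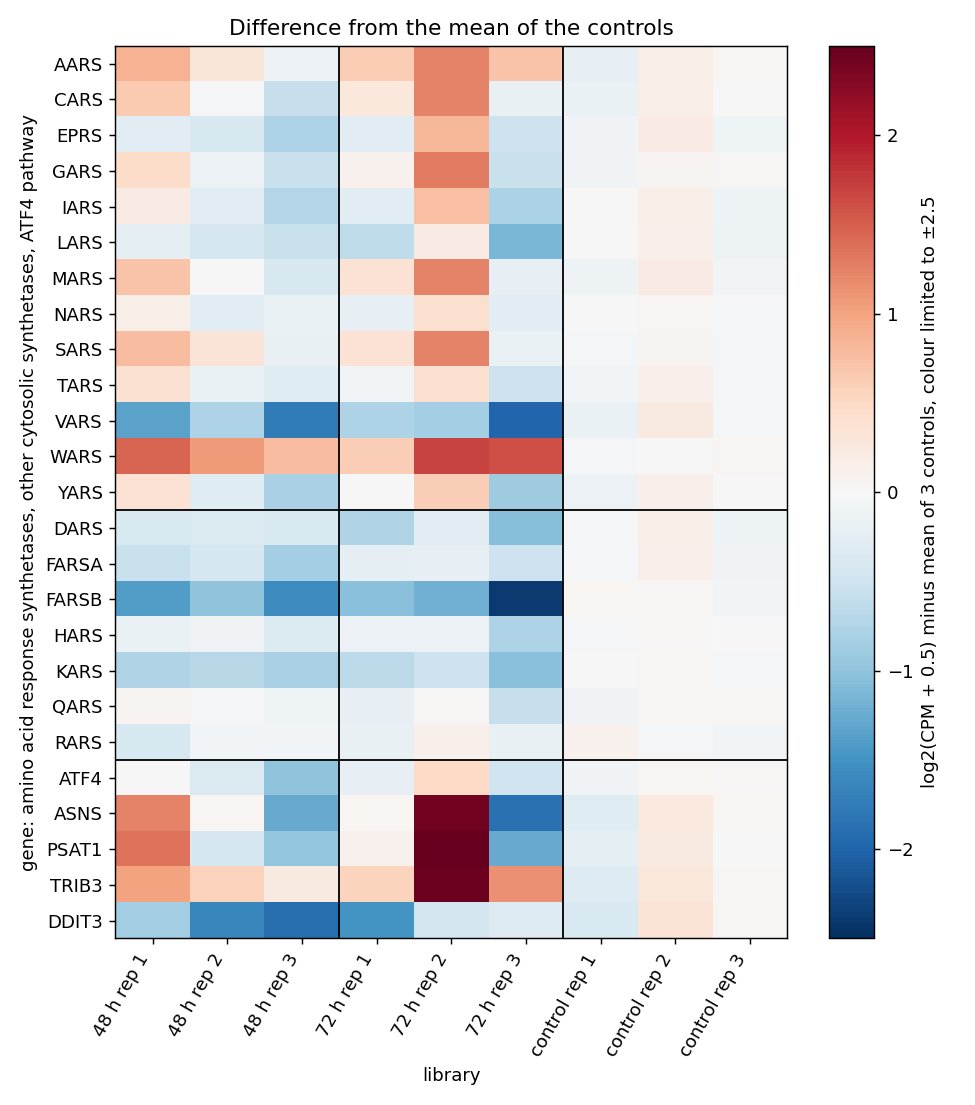
Difference of log2(CPM + 0.5) from the mean of the controls in every library (columns, 48 h, 72 h and control), for the 13 amino acid response targets among the cytosolic synthetases, the other 7, and 5 genes of the ATF4 pathway (rows). Colour runs from blue (lower) to red (higher) and is limited to ±2.5. The columns of 72 h replicate 2 and 48 h replicate 1 are red in most of the upper rows and those of treated replicate 3 are mostly blue, whereas WARS is red and VARS and FARSB are blue in every treated library.

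The motif known for ATF4, TGATGNAA, was searched on both strands of the promoter windows. Of the 13 genes 10 had a window, and 7 of these held it: AARS, CARS, GARS, IARS, MARS, NARS and TARS. It was in 0 of 6 other cytosolic genes, in 1 of 14 mitochondrial genes (YARS2) and in 4.46% of all 27305 genes. EPRS, SARS and WARS had a window without these letters, and VARS, YARS, LARS, DARS, AARS2 and VARS2 had none in the table. The 13 genes were listed as known targets of the response, so their share with the motif is not separate evidence. EPRS, SARS and WARS, without the motif in their windows, were also highest in 72 h replicate 2. A link between the motif and the order of the libraries was not tested. The 30 bases around each match are shown as read on the strand of the gene, with the motif in capitals. ASNS, a known target, is set beside the 7 genes.
AARS promoter, chr16:70289675-70289704, minus strand: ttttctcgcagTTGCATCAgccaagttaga
CARS promoter, chr11:3057407-3057436, minus strand: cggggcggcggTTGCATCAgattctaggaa
GARS promoter, chr7:30594834-30594863, plus strand: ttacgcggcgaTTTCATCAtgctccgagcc
IARS promoter, chr9:92293692-92293721, minus strand: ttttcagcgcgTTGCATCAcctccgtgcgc
MARS promoter, chr12:57488053-57488082, plus strand: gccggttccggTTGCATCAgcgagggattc
NARS promoter, chr18:57621804-57621833, minus strand: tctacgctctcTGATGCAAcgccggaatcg
TARS promoter, chr5:33440956-33440985, plus strand: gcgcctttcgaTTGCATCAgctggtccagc
ASNS promoter, chr7:97872458-97872487, minus strand: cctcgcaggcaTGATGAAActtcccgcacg
All stretches are RefSeq sequence on GRCh38.p14. In AARS, CARS, GARS, IARS, MARS and TARS the motif lies on the strand opposite to the gene, and in NARS and ASNS on the strand of the gene. The matches began between 187 bases before (AARS) and 15 bases after (NARS) the start. A match of letters does not show that ATF4 acts there.

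Other genes of the amino acid response were followed beside the synthetases. Of 31 such genes, 2 rose and 2 fell at 48 h and 4 rose and 1 fell at 72 h, and with replicate number as a block 1 rose and 4 fell at 48 h and 2 rose and 1 fell at 72 h. Of all genes, 14.9% rose and 16.0% fell at 48 h and 20.4% and 19.4% at 72 h. Without 1 library 0 to 3 rose and 1 to 5 fell at 48 h and 1 to 6 rose and 1 to 3 fell at 72 h, and DESeq2 called 4 higher and 4 lower at 48 h and 8 higher and 1 lower at 72 h. ASNS, asparagine synthetase, had 121, 52.9 and 20.9 CPM at 48 h, 53.2, 275 and 13.6 CPM at 72 h and 41.6, 60.7 and 52.9 CPM in controls. PSAT1, of serine synthesis, had 193, 55.4 and 37.8 CPM at 48 h, 79.7, 451 and 30.6 CPM at 72 h and 63.1, 87.04 and 75.1 CPM in controls. In both, 72 h replicate 2 was highest and 48 h replicate 1 next, the libraries of replicate 3 lay below the controls, and neither passed (adjusted p = 0.373 and 0.291 at 72 h). Over the 31 genes, 72 h replicate 2 was the highest treated library in 22 (71.0%), against 16.6% of all genes.

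ATF4 itself had 294, 231 and 148 CPM at 48 h, 255, 415 and 208 CPM at 72 h and 279, 308 and 300.0 CPM in controls, with -0.398 ± 0.29 (adjusted p = 0.319) at 48 h and -0.013 ± 0.29 (adjusted p = 0.975) at 72 h. TRIB3, a pseudokinase induced by ATF4, had 92.3, 68.7 and 53.5 CPM at 48 h, 67.98, 252 and 101 CPM at 72 h and 36.5, 55.8 and 47.01 CPM in controls. Its 72 h libraries all lay above the controls, with 0.62 ± 0.45 (adjusted p = 0.3201) at 48 h and 1.596 ± 0.46 (adjusted p = 0.0234) at 72 h, lost without any 1 control. DDIT3, which encodes CHOP, had 13.5, 7.72 and 6.36 CPM at 48 h, 8.46, 17.8 and 19.9 CPM at 72 h and 18.99, 31.6 and 25.5 CPM in controls, with -1.46 ± 0.37 (adjusted p = 0.0183) at 48 h and -0.72 ± 0.37 (adjusted p = 0.143) at 72 h, and its 48 h call was lost without control 2 or 3 or 48 h replicate 2 or 3. ATF3, another factor of the response, had 13.7, 7.23 and 24.2 CPM at 48 h, 7.44, 9.06 and 11.99 CPM at 72 h and 79.6, 89.8 and 98.5 CPM in controls, a fall at both times (-2.58 ± 0.38 (adjusted p = 0.00225) at 48 h and -3.23 ± 0.39 (adjusted p = 0.000732) at 72 h). SLC38A2, a carrier of neutral amino acids, had 4612, 1726 and 4328 CPM at 48 h, 3130.2, 2776 and 6345 CPM at 72 h and 1124, 1192 and 1132 CPM in controls, a rise at both times (1.63 ± 0.41 (adjusted p = 0.0158) at 48 h and 1.83 ± 0.41 (adjusted p = 0.00734) at 72 h), of which the 48 h call was lost without any 1 control or 48 h replicate 1. SLC1A4 and NUPR1 passed at 72 h only narrowly (adjusted p = 0.0436 and 0.0467) and not with the block. MYC, which also drives genes of translation, had 171, 112 and 92.0 CPM at 48 h, 132, 160 and 25.6 CPM at 72 h and 176, 223 and 223 CPM in controls. All its treated libraries lay below the controls, but it did not pass. Its log2 fold changes were -0.73 ± 0.55 (adjusted p = 0.348) at 48 h and -0.97 ± 0.56 (adjusted p = 0.195) at 72 h.

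Where cytosol and mitochondria use separate genes for an amino acid, the ratio of the 2 transcripts per kilobase was compared between groups in 17 pairs. With 3 libraries against 3 a two-sided exact permutation test cannot give a p below 0.10, and the smallest adjusted over the 17 pairs was 0.189, so no pair passed. All 3 treated libraries lay above the controls in 4 pairs at 48 h and 6 at 72 h, and below in 5 and 3. Of all genes tested, taken singly, 25.6% lay wholly above and 28.1% wholly below at 48 h, and 27.3% and 27.7% at 72 h. The share for ratios of other genes was not computed. EPRS and FARS2 recur among the pairs, which are therefore not all independent. For tryptophan (WARS over WARS2) the log2 ratio was 4.06, 3.62 and 3.59 at 48 h, 3.43, 4.66 and 4.64 at 72 h and 1.95, 1.95 and 2.26 in controls. The mean difference from control was 1.71 and 2.19, the largest of the 17 at each time, and here the cytosolic gene rose while the mitochondrial one fell. For serine (SARS over SARS2) the log2 ratio was 7.21, 6.16 and 6.43 at 48 h, 6.404, 7.72 and 6.03 at 72 h and 5.02, 5.57 and 5.52 in controls, and for methionine (MARS over MARS2) it was 3.705, 2.97 and 3.37, 3.71, 4.77 and 3.38 and 2.29, 2.604 and 2.399 in the same order. In these 2 pairs only the mitochondrial gene passed the gene test.

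The alanine pair (AARS over AARS2) also lay above the controls at both times, by 0.90 and 1.095, and the cysteine and asparagine pairs at 72 h, by 0.97 and 0.65. For valine (VARS over VARS2) the log2 ratio was 1.73, 2.25 and 1.496 at 48 h, 1.79, 1.93 and 0.75 at 72 h and 2.68, 3.18 and 2.85 in controls, a mean difference of -1.08 and -1.42. For phenylalanine the beta subunit over the mitochondrial enzyme (FARSB over FARS2) lay lower by -1.39 and -1.42, and FARS2 itself stayed within the range of its controls at 48 h. The arginine pair lay below the controls at both times by -0.28 and -0.091, and the pairs of EPRS with PARS2 and FARSA with FARS2 at 48 h by -0.76 and -0.66. The direction of these differences varied between amino acids, but no pair passed.

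**Figure D5:**
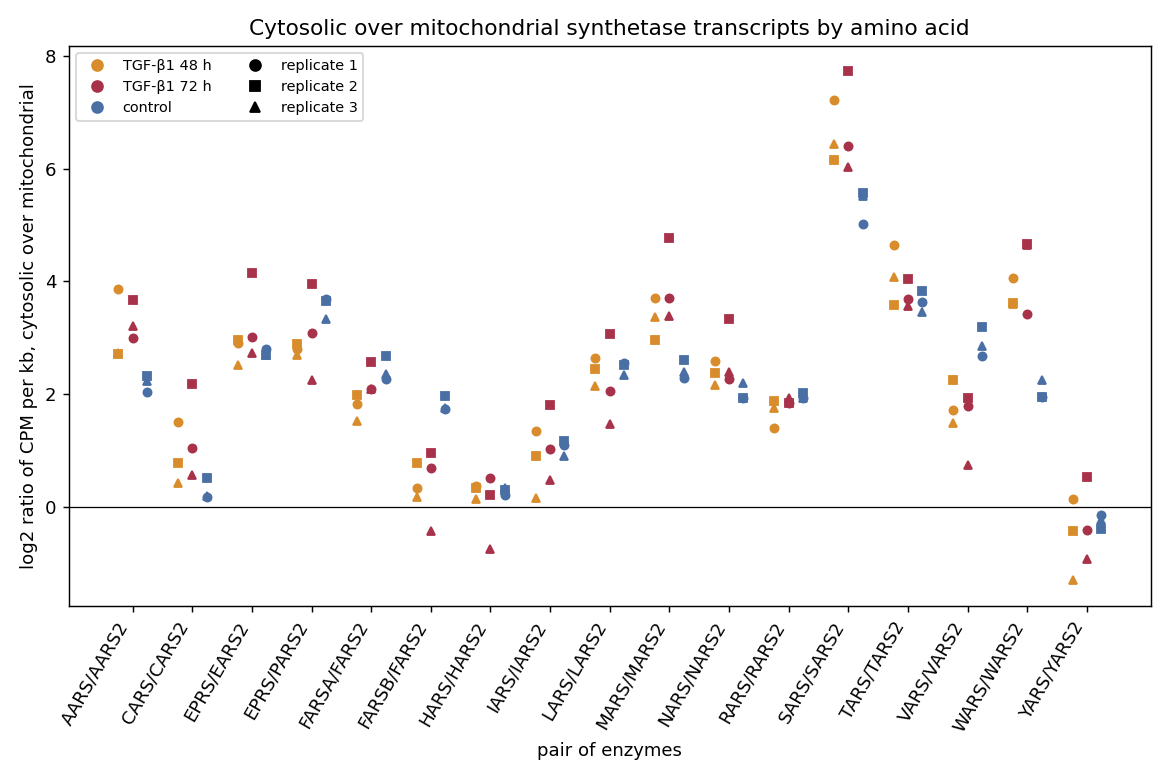
Log2 ratio of CPM per kilobase, cytosolic over mitochondrial, for 17 pairs of synthetase genes of the same amino acid, with each library as a point (48 h, 72 h and control side by side, marker shapes for replicates). The tryptophan pair shows the widest gap of treated points above control points, and FARSB/FARS2 and VARS/VARS2 lie below their controls.

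In the cytosol 8 of the synthetases sit in the multi-tRNA synthetase complex, which the proteins AIMP1, AIMP2 and EEF1E1 hold together. Of these 8, KARS fell at 48 h and KARS and DARS at 72 h, and EPRS, IARS, LARS, MARS, QARS and RARS did not pass. The 3 scaffold genes all fell at both times. AIMP2 had 14.6, 12.6 and 10.3 CPM at 48 h, 16.3, 13.8 and 7.72 CPM at 72 h and 29.2, 29.5 and 29.7 CPM in controls. AIMP1 had 52.3, 51.3 and 56.7 CPM at 48 h, 51.9, 52.9 and 42.1 CPM at 72 h and 90.5, 85.3 and 84.3 CPM in controls, and EEF1E1 had 19.4, 16.6 and 21.7 CPM at 48 h, 17.98, 17.1 and 14.2 CPM at 72 h and 31.5, 33.02 and 29.7 CPM in controls. No treated library reached a control in any of the 3, and the log2 fold changes were -1.24 ± 0.25 (adjusted p = 0.00584) at 48 h and -1.22 ± 0.25 (adjusted p = 0.00439) at 72 h for AIMP2, -0.698 ± 0.12 (adjusted p = 0.00303) at 48 h and -0.82 ± 0.12 (adjusted p = 0.00104) at 72 h for AIMP1 and -0.71 ± 0.15 (adjusted p = 0.00686) at 48 h and -0.93 ± 0.15 (adjusted p = 0.00152) at 72 h for EEF1E1. All 3 calls held at both times in 9 of 9 omissions of 1 library. Without every library of replicate 1, or of replicate 2, 0 of the 3 passed at 48 h, and 2 passed at 72 h without replicate 2. Of all genes, 16.0% were called lower at 48 h and 19.4% at 72 h.

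The cytosolic genes not yet given with values were HARS, QARS and RARS, for histidine, glutamine and arginine. Their log2 fold changes were -0.19, -0.026 and -0.17 at 48 h and -0.33, -0.23 and -0.075 at 72 h, and none passed. HARS lies head to head with HARS2, and 8.38% of its exon bases and 15.8% of those of HARS2 overlap other genes.

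Neighbouring steps of translation were counted in the same way. Of 20 genes of tRNA maturation and export, 12 fell at 48 h and 12 at 72 h and 0 rose, where 16.0% and 19.4% of all genes were called lower, with median log2 fold changes of -0.57 and -0.54. Among them RPP40 and POP1, of RNase P, which trims the leader of a tRNA, changed by -1.21 and -1.04 at 48 h and by -1.47 and -1.24 at 72 h. TRMT61A, a tRNA methyltransferase, and PUS1, a pseudouridine synthase, changed by -1.33 and -1.23 at 48 h and by -1.09 and -0.71 at 72 h, and PUS1 at 72 h was lost without any 1 control. XPOT, the exporter of tRNA, did not pass (0.040 ± 0.37 (adjusted p = 0.944) at 48 h and 0.41 ± 0.37 (adjusted p = 0.398) at 72 h) and was highest in 72 h replicate 2. Without 1 library the count of genes that fell was 8 to 16 at 48 h, lowest without control 2 or 3, and 10 to 12 at 72 h. It was 3 and 9 without every library of replicate 1 and 4 and 7 without those of replicate 2.

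Of 13 mitochondrial translation factors, including the subunits of the amidotransferase that completes the glutamine tRNA, 6 fell at 48 h and 5 at 72 h and 0 rose, beside the same 16.0% and 19.4% of all genes. Among them MTIF2, the initiation factor, changed by -0.83 and -0.81, and GFM1, an elongation factor, by -0.74 and -0.89, both in 9 of 9 omissions. MRRF, the recycling factor, changed by -0.58 and -0.64. Of the amidotransferase, QRSL1 fell (-0.37 ± 0.11 (adjusted p = 0.0271) at 48 h and -0.55 ± 0.11 (adjusted p = 0.00422) at 72 h), while GATB and GATC did not pass. At 48 h MRRF held its call in 6 of 9 omissions and QRSL1 in 4 of 9 (adjusted p up to 0.0724 and 0.0906). Both held in 9 of 9 at 72 h. The count at 48 h was 2 without control 2 and 3 with no filter on low counts, and without every library of replicate 1 it was 1 at 48 h and 2 at 72 h. Without those of replicate 2 it was 2 and 4. Of 6 cytosolic elongation factor genes listed, EEF1G had 0 counts in all 9 libraries and could not be tested. The cause was not tested. Of the other 5, 3 fell at 48 h and 2 at 72 h. These were EEF1B2 (-0.98 and -1.11) and EEF1D (-0.68 and -0.56) at both times and EIF5A at 48 h (-1.12), while EEF2 had -0.64 at 72 h (adjusted p = 0.0517). Without 1 library these counts ran from 1 to 3 and from 1 to 2, and they were 0 without every library of replicate 1 or of replicate 2. The 48 h calls of EEF1B2 and EIF5A held in 5 and 4 of 9 omissions, and the 72 h call of EEF1D in 6 of 9. At 72 h, 4 fell with replicate number as a block, with DESeq2 and with no filter on low counts. The shares of all genes called lower were again 16.0% and 19.4%.

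Between 72 h and 48 h, 0 of the 36 genes and 0 of 15440 passed an adjusted p of 0.05 in edgeR (percent called 0). Without adjustment 1382 genes (8.95%) had a p under 0.05, among them 1 of the 36, VARS2. DESeq2 called 50 genes, none of them a synthetase. VARS2 was also the single member with its 72 h libraries all above those of 48 h, as in 7.07% of all genes, and 0 members had them all below, as in 5.17%. The log2 differences of the cytosolic genes ran from -0.28 (DARS) to 0.62 (EPRS), and those of the mitochondrial genes from -0.29 (MARS2) to 0.42 (VARS2). This does not show that the times are alike, and the libraries of a time differed widely in the amino acid response targets.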

How the data were processed

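RNA was purified with the RNeasy Mini Kit and sequencing libraries came from the NEBNext Ultra kit, per the labels. What was deposited is a raw read count for each Ensembl gene in each library on hg38, and the authors did not normalize it. The submitters' processing notes name STAR 2.5.2a, featureCounts 1.5.0-p1, FastQC 0.11.5 and bcl2fastq 2.17.1.14. Which annotation release and strand option were used, and how multiply aligned reads were treated, is not given in the sources used here, so genes whose exons overlap may share or lose reads. Symbols and loci came from GENCODE release 29, which held 57895 of the 58233 identifiers.

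Sample labels gave the group, replicate number and passage. Libraries of a group differed beyond sampling noise (chi-square of at least 8.99 per degree of freedom), so each of the 9 counted as 1 sample. Genes were tested in edgeR 4.0.16 (R 4.3.3), where filterByExpr kept 15440 and TMM set the scale. A single model of the 3 groups (6 residual degrees of freedom) covered all 9 libraries, followed by robust quasi-likelihood F tests whose p-values were adjusted by Benjamini-Hochberg in each comparison (threshold 0.05). The procedure was tested on simulated counts with known changes. CPM refers to TMM-scaled library sizes, log2 CPM adds a prior count of 0.5, and levels are set side by side between genes only per kilobase of merged exon. Each standard error is approximate, namely the size of the log2 fold change divided by the root of F.

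Libraries with the same number share a passage according to the labels. A second fit therefore took the number as a replicate block, leaving 4 residual degrees of freedom. Deviations from group means correlated within a number at 0.11, 0.08 and 0.11 (48 h and control), 0.03, 0.13 and 0.11 (72 h and control) and -0.05, 0.52 and 0.53 (72 h and 48 h), so the pairing rests on the labels. DESeq2 1.42.0 was run as a further alternative, as were edgeR fits with its size factors, with upper-quartile factors, unfiltered, with a filter of 1 CPM in 3 libraries, on only the 2 groups compared, and leaving out each library or each number.

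The 36 genes, all other lists and the naming rule were chosen with earlier results of these data known. By that rule every synthetase gene is accounted for, those past the threshold at 48 h or 72 h with full values. From each other list it took up to 4 genes, first those past the threshold at both times, then at 1 time, by the size of the change, and then by the smallest p at 72 h, and always ATF4, DDIT3, TRIB3, ASNS, MYC and GBP1. A gene that the rule also names is not reported here. PSAT1, XPOT, IRF1, IFIT1, GBP2 and the uncalled synthetases given by library were named outside it, after their values were seen. So were GATB, GATC, EEF1G, SLC7A11, TSEN54, RTCB and POP4.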

Additional observations from a re-analysis of the deposited data

Results flagged for a closer look

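VARS2, the valine enzyme of mitochondria, lay on opposite sides of the controls at the 2 times. It had 34.5, 29.7 and 30.6 CPM at 72 h and 24.3, 25.3 and 21.4 CPM at 48 h, beside 28.2, 26.3 and 27.4 CPM in controls, so that every 72 h library was above every control and every 48 h library below. The log2 fold change of 72 h against 48 h was 0.42 ± 0.12 (unadjusted p = 0.00692, adjusted p = 0.466 in edgeR), which does not pass. Against control it had -0.21 ± 0.12 (adjusted p = 0.229) at 48 h and 0.21 ± 0.12 (adjusted p = 0.191) at 72 h, and neither passes. Exons of GTF2H4, on the same strand, contribute to the 22% of its exon bases that overlap another gene, and the part of this in the result was not tested.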

How the results depend on the processing

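Under DESeq2, other scaling factors, other filters and the replicate block, the counts of synthetase genes called at 48 h and 72 h against control stayed within 1.5 times of those reported. With only the 2 groups compared, 7 cytosolic genes were lower at 48 h in place of 4, adding DARS, EPRS and LARS (adjusted p = 0.0282, 0.0459 and 0.0440). The replicate block, with passages as pairs, gave 5 cytosolic genes lower at 72 h, adding FARSA and changed no other synthetase call. It also took NUPR1 and SLC1A4 at 72 h, SLC7A11, TSEN54 and RTCB at 48 h and POP4 at 72 h out of the calls of the other lists. With no filter on low counts SARS was gained as higher at 72 h (adjusted p = 0.0324), and of the interferon genes 0 passed at 48 h in place of 2. With only the 2 groups compared, 5 genes of the amino acid response rose and 5 fell at 48 h in place of 2 and 2, and 4 interferon genes rose at 48 h. Between 72 h and 48 h, DESeq2 called 50 genes and edgeR without a filter 211, none of them among the 36, and the cause was not tested. No synthetase gene reversed its direction with a call on either side.

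Leaving out 1 library or 1 replicate number left fewer samples and moved the counts more. Cytosolic genes called higher ran from 0 to 1 at 48 h and 0 to 3 at 72 h, cytosolic genes called lower from 0 to 4 and 1 to 5, mitochondrial genes called lower from 0 to 8 and 1 to 6, and mitochondrial genes called higher from 0 to 0 and 0 to 1. All genes called ran from 765 to 6289 at 48 h and 2602 to 6184 at 72 h, and were 0 between 72 h and 48 h throughout, as were the synthetase genes. Counted once per gene and fit, a synthetase call was lost 47 times at 48 h and 31 times at 72 h. A call was gained 4 times at 48 h (LARS2, NARS2 and, in 2 fits, TARS2) and 3 times at 72 h (LARS, SARS and PARS2).

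With 3 libraries a group, a change of small size can miss the threshold, and a gene that did not pass is not shown to be unchanged. The lowest count of a synthetase gene in a library was 26, in SARS2.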
